A study of Homo sapiens with 3 samples.

Results

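The 39 genes described here are a list of DNA replication and S phase genes, given by symbol with no threshold on their levels. All 39 were found by symbol among the 32732 genes that the feature tables of the 3 libraries shared. The study followed BJ cells, an established human fibroblast line of wild-type genotype, through a chemical induction towards cells that the labels call FiNs, a name for induced neuron cells. Each of 3 single-cell RNA libraries was 1 group: BJ cells at day 0, FiN cells at day 3 and FiN cells at day 5. The labels carry the same treatment, "reprogramming", and the same protocol for all 3 samples: growth in fetal bovine serum, then an induction medium with forskolin, an activator of adenylyl cyclase, then on day 2 a maturation medium with forskolin, and on day 5 withdrawal of forskolin. The sources used here do not say whether the day 0 cells had met the induction medium. By the labels, nuclei were prepared for the first pair of time points, with a kit for open chromatin, and dissociated cells were loaded with a 3' gene expression kit at day 5, with the open chromatin kit named for that library too. All 3 files hold UMI counts of genes, so the preparation of each library is not settled by its labels, and day and preparation cannot be told apart in any comparison here.

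A cell copies its DNA once per cycle. In G1, origins are loaded with a ring-shaped helicase made of MCM2 to MCM7, and at the start of S phase CDC45 and the GINS complex join the ring and activate it. DNA polymerases then copy the strands, held on DNA by the sliding clamp PCNA, while ribonucleotide reductase and thymidylate synthase supply nucleotides, and histone chaperones and DNA methylation factors rebuild chromatin behind the fork. Many of these genes are transcribed late in G1 under E2F factors, so their transcripts mark dividing cells, and they fall when cells leave the cycle, as neurons do for good.

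After filtering, 16773 cells at day 0, 11454 at day 3 and 9219 at day 5 were kept, with 246546451, 18743865 and 51708522 unique molecular identifiers (UMIs, each a counted transcript molecule). The median cell held 14039, 1324 and 4374 UMIs. Levels are CPM, the usual per-library scaling of a gene's UMIs, with the library's UMIs on the shared genes as the total, each followed by its exact Poisson 95% interval. Each group was a single library, so nothing was tested across replicates, and every interval covers counting error only. Libraries differed in make-up: ribosomal protein genes held 17.1%, 4.32% and 2.14% of UMIs at days 0, 3 and 5, MALAT1, a nuclear RNA, held 3.14%, 21.6% and 7.35%, mitochondrial genes held 6.45%, 0.745% and 5.01%, and genes with over 100 kb of intron held 8.84%, 13.7% and 46.6%. The part of these differences in the results was not tested. Markers of the labelled cell types were checked by list. Summed CPM of 14 fibroblast markers was 11596, 10699 and 1413, and that of 13 pan-neuronal markers was 93.93, 50.61 and 4518, with 3, 4 and 0 of the 13 at 0 UMIs. The day 3 library, labelled as induced neuron cells, thus held no higher a summed pan-neuronal level than the day 0 library. SYT1 made up most of the day 0 sum, at 66.0 CPM, and its ratio of day 3 over day 0 was 0.304. Single markers went both ways from day 0 to day 3. INA also fell, from 12.3 to 0.802 CPM, while SNAP25 rose from 11.8 to 18.4, NCAM1 from 0 to 5.18 and GPM6A from 0.00406 to 1.98 CPM. The sum therefore does not give the direction of each marker. Summed CPM of 10 neural progenitor markers was 331.9, 67.93 and 2517. At day 0 NES and SOX9 made up most of it, at 147 and 171 CPM, and at day 5 RFX4 did, at 1963 CPM. Of the other lists checked, muscle and blood markers summed to at most 2.459 CPM at any day, endothelial markers to 34.69 CPM or less and epithelial markers to 103.8 CPM or less. Between 27 and 63 cell barcodes were shared by each pair of libraries.

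Replication transcripts were a small share of the RNA at every day, and were lowest in sum at day 3. The 39 genes together reached 1139 CPM (1135 to 1144) at day 0, 946.0 CPM (932.1 to 960.1) at day 3 and 1532 CPM (1521 to 1543) at day 5. Single members ranged from 2.54 to 74.8 CPM at day 0, from 2.46 to 148 at day 3 and from 4.18 to 202 at day 5, resting on 626 to 18430, 46 to 2778 and 213 to 10306 UMIs. Below, a gene is called higher or lower where the CPM differed by a factor of 2 or more, reached 10 in the higher library and had separate intervals. In bulk sums of this kind, fewer cells in cycle and less RNA per cycling cell cannot be told apart.

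Day 3 was first set against day 0. At day 3, 16 of the 39 genes were lower and 6 were higher than at day 0, with 34 of the 39 at 10 CPM or more in either library. Of the 10431 genes that reached 10 CPM in either library, 19.1% were lower and 37.6% were higher. The median log2 ratio of the 39 genes was -0.88, and that of the 10431 genes was 0.49. Day 5 was then set against day 3. Here 16 members were higher and 2 were lower, against 36.5% and 28.7% of 12623 genes, with a median log2 ratio of 0.82 for the members and 0.16 for those genes. Against day 0, day 5 had 12 members higher and 5 lower, against 49.1% and 26.0% of 12084 genes, with medians of 0.28 and 0.93. The 3 comparisons share libraries in pairs, so they are not independent of each other. Each gene's day 3 value enters the first 2 comparisons, and the share of all genes with the pairs of calls that follow was not computed. The calls of 9 genes were lower at day 3 and then higher at day 5 (MCM2, MCM5, MCM6, GINS2, RFC2, RRM2, DTL, UHRF1 and UBR7), while 2 genes, POLA1 and BLM, were higher at both steps and 1, MCM7, was higher and then lower.

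**Figure D1:**
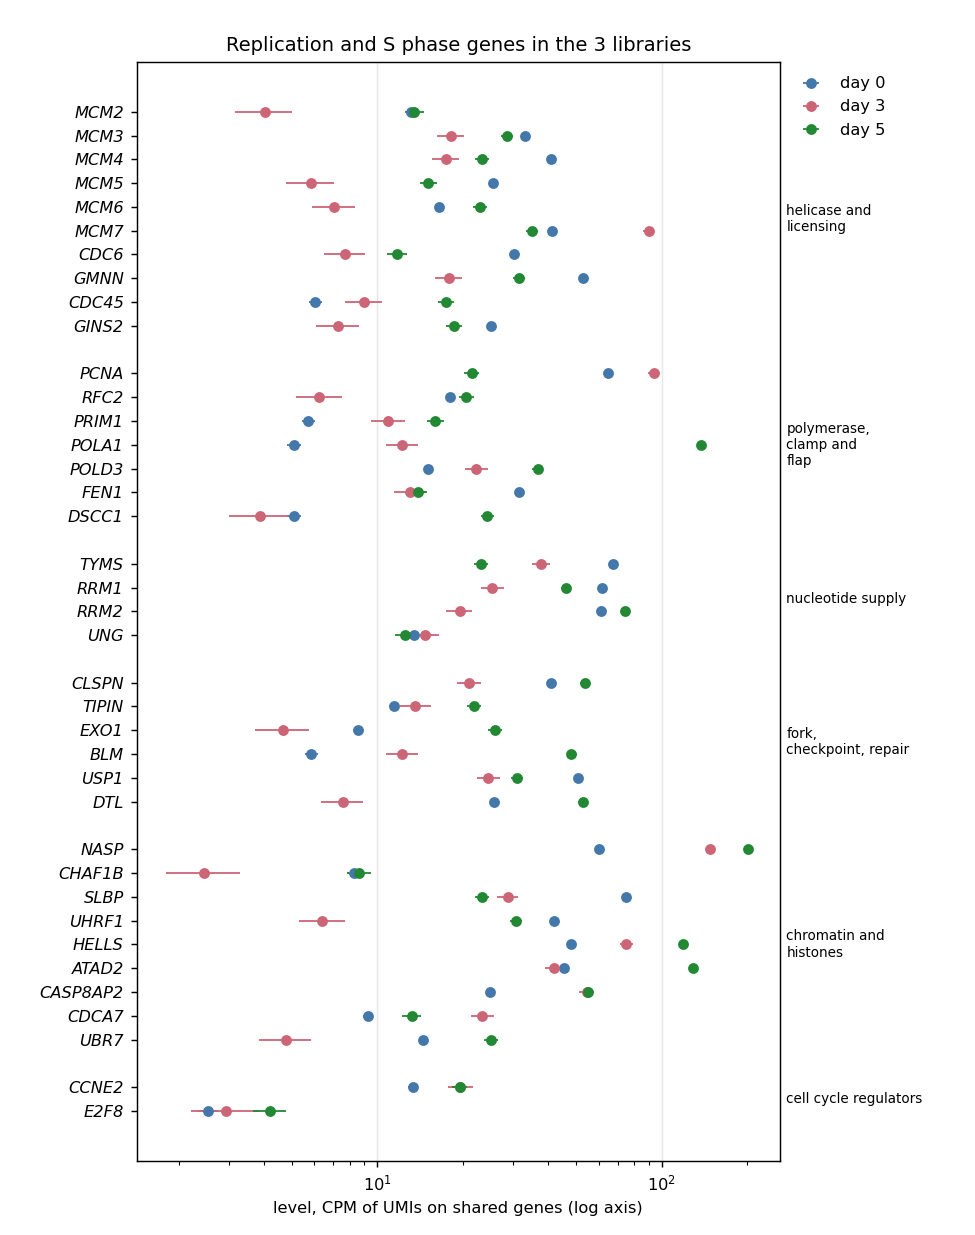
Levels of 38 of the 39 genes in CPM (log axis) at day 0, day 3 and day 5, grouped by role, with exact Poisson 95% intervals as bars. The day 3 points lie to the left for most helicase genes, but MCM7 and PCNA lie to the right at 90.0 and 94.0 CPM, and POLA1 stands at 138 CPM at day 5.

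Promoter sequence was read beside the levels. The RefSeq promoter table (GRCh38.p14) held 32 of the 39, all but MCM4, MCM5, POLD3, DSCC1, ATAD2, CCNE2 and E2F8, and the 250 bases before each start were searched on both strands for the E2F-type letters TTTCCCGC, TTTGGCGC, TTTGCCGC and TTTCGCGC. These were in 13 of 32 member promoters (40.6%) and in 3.67% of 14896 promoters of protein-coding genes. The letters CCAAT were in 68.8% and 34.5%, and the cell cycle homology letters TTTGAA in 3.12% and 10.7%. In the same window 10 of 50 promoters of other replication genes and 2 of 44 promoters of G2 and M phase genes held E2F-type letters, while TTTGAA was in 52.3% of the latter. Of the 13 matched stretches, 9 touch the span of their own gene in GENCODE 29, and the 4 printed here are those that lie outside it and on no annotated exon, each 80 bases on the gene's strand with the E2F-type letters in capitals. They lie at chr2:135876486-135876565 (minus strand) for MCM6, chr20:5126638-5126717 (minus) for PCNA, chrX:24693745-24693824 (plus) for POLA1 and chr6:89829695-89829774 (plus) for CASP8AP2. In MCM6 the capitals hold 2 overlapping matches, one on each strand.
MCM6: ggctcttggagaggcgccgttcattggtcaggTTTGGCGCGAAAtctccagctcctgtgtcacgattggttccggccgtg
PCNA: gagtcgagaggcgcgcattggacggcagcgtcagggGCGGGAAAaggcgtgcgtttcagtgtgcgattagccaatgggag
POLA1: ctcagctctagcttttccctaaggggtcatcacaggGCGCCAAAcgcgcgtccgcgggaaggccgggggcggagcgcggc
CASP8AP2: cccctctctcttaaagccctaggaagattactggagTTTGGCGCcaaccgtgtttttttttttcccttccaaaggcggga
Genes with and without these letters moved in both directions. Of the 13 promoters with E2F-type letters, 5 belonged to genes lower at day 3 than at day 0 and 4 to genes that were higher, and of the 19 without them 9 and 2, where 19.1% of all genes at the CPM limit were lower and 37.6% higher. MCM6 was lower at day 3, POLA1 and CASP8AP2 were higher and PCNA was not called, with the same kind of letters in this window. A match is a description of the sequence, and no match says only that these letters were not in this window.

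Among the helicase and licensing genes, 7 of 10 were lower at day 3 than at day 0 and 1 was higher, with a median log2 ratio of -1.40, where 19.1% and 37.6% of all genes at the CPM limit were lower and higher. MCM5, a helicase subunit, stood at 25.6 CPM (24.9 to 26.2) at day 0, 5.83 (4.78 to 7.03) at day 3 and 15.1 (14.1 to 16.2) at day 5. Day 3 was thus 4.39-fold below day 0, and day 5 was 2.59-fold above day 3. MCM2 read 13.1 CPM (12.6 to 13.5), 4.01 (3.15 to 5.02) and 13.5 (12.5 to 14.6), so that days 0 and 5 overlapped and day 3 was 3.26-fold below day 0. MCM6 read 16.5 (16.0 to 17.0), 7.05 (5.90 to 8.37) and 23.0 (21.7 to 24.3) CPM. MCM4 was 2.34-fold lower at day 3, and MCM3, at a ratio of 0.544, did not reach the limit.

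MCM7 went the other way from the 5 subunits that share its ring. Its level was 41.1 CPM (40.3 to 42.0) at day 0, 90.0 (85.7 to 94.4) at day 3 and 35.0 (33.3 to 36.6) at day 5. Since all 6 subunits were counted in the same cells, their make-up does not depend on how the libraries were scaled. MCM7 held 24.2% of the MCM2 to MCM7 UMIs at day 0 (exact binomial 95% interval 23.8 to 24.6), 63.2% at day 3 (61.3 to 65.0) and 25.2% at day 5 (24.2 to 26.3). At day 3 the share of MCM5 was 4.09% and that of MCM2 was 2.82%, against 15% and 7.68% at day 0. The day 3 share of MCM7 was 63.6% in the cells that passed a strict filter of 2000 UMIs. MCM7 shares 392 bases with AP4M1 on the opposite strand, and AP4M1 itself read 10.8, 35.0 and 17.9 CPM. The sources used here do not state whether counting used strand, so UMIs of 2 overlapping genes may not be told apart, and the part of AP4M1 in the MCM7 values was not tested.

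**Figure D2:**
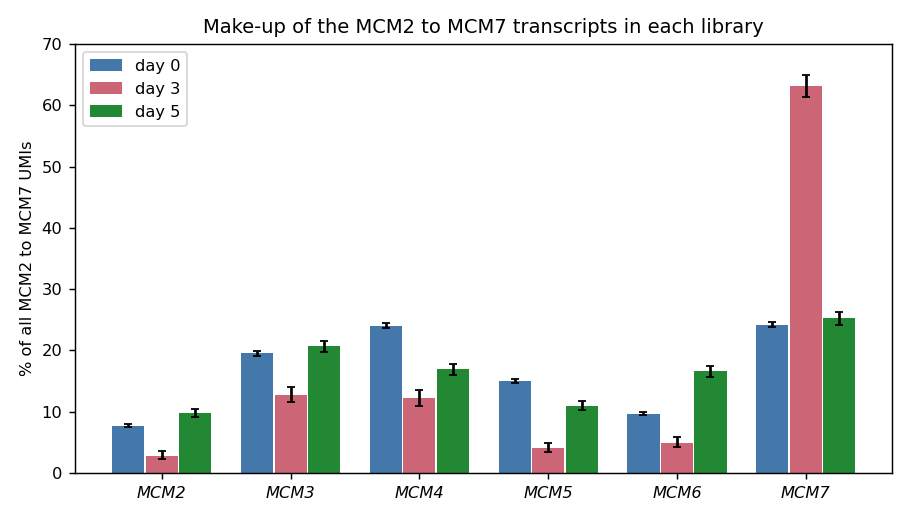
Share of each helicase subunit among all MCM2 to MCM7 UMIs of a library, in percent, with exact binomial 95% intervals. MCM7 held 63.2% at day 3 and 24.2% and 25.2% at days 0 and 5, and the other 5 subunits each had their lowest share at day 3.

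The other licensing and activation genes split. CDC6, which loads the helicase, fell from 30.2 CPM (29.5 to 30.8) at day 0 to 7.70 (6.49 to 9.06) at day 3 and stayed low at 11.7 (10.8 to 12.7) at day 5. It was called lower at both days against day 0, by 3.92-fold and 2.57-fold. GMNN, which encodes geminin, an inhibitor of licensing, read 52.7, 17.8 and 31.5 CPM. GINS2, a subunit of the GINS complex, read 25.1, 7.27 and 18.6 CPM. CDC45 was the exception in this group besides MCM7. It read 6.05 CPM (5.75 to 6.37) at day 0, 8.98 (7.67 to 10.4) at day 3 and 17.5 (16.3 to 18.6) at day 5, and day 5 was 2.88-fold above day 0.

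Among the genes of the polymerases, the clamp and flap processing, the order of the days differed from gene to gene. PCNA, the sliding clamp, read 65.0 CPM (64.0 to 66.0) at day 0, 94.0 (89.6 to 98.5) at day 3 and 21.5 (20.2 to 22.8) at day 5. Day 5 was 4.37-fold below day 3 and 3.02-fold below day 0. FEN1, the flap nuclease that binds PCNA, instead read 31.5 (30.8 to 32.2), 13.0 (11.4 to 14.7) and 13.9 (12.9 to 14.9) CPM. PCNA thus made up 67.4% of the UMIs of this pair at day 0, 87.9% at day 3 and 60.8% at day 5. FEN1 shares 4265 bases with FADS2 on the same strand, which read 28.3, 56.7 and 168 CPM.

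POLA1, the catalytic subunit of the polymerase that starts each new strand, had the largest ratios of the 39 in both comparisons with day 5. It read 5.10 CPM (4.82 to 5.39) at day 0, 12.2 (10.7 to 13.9) at day 3 and reached 138 (135 to 141) at day 5, for a ratio of 11.3 over day 3 and of 27.1 over day 0. No 2 of these intervals overlapped. POLA1 is also the member with the most intron, 296732 bases. In day 5 barcodes of 100 UMIs or fewer, a measure of free RNA, it read 62.1 CPM. PRIM1, its primase partner, read 5.71, 10.9 and 16.0 CPM, and POLD3, a subunit of polymerase delta, read 15.1, 22.3 and 36.7 CPM, both called higher at day 5 than at day 0 only. DSCC1, part of an alternative clamp loader, read 5.08, 3.85 and 24.4 CPM and was 6.35-fold higher at day 5 than at day 3. RFC2, a subunit of the main clamp loader, read 18.0, 6.25 and 20.5 CPM, lower at day 3 and back at day 5.

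Of the nucleotide supply genes, both subunits of ribonucleotide reductase were lower at day 3 than at day 0. RRM2, the small subunit, read 61.3 CPM (60.4 to 62.3), 19.5 (17.5 to 21.6) and 74.3 (72.0 to 76.7), and RRM1, the large subunit, read 61.8 (60.8 to 62.8), 25.4 (23.2 to 27.8) and 46.2 (44.4 to 48.2). The pair was near balance at day 0, where RRM2 held 49.8% of their UMIs, against 43.4% at day 3 and 61.6% at day 5. TYMS, thymidylate synthase, had its lowest level at day 5, with 67.5 (66.5 to 68.5), 37.7 (34.9 to 40.6) and 23.2 (21.9 to 24.5) CPM. TYMS shares 3255 bases with ENOSF1 on the opposite strand, which read 17.8, 128 and 138 CPM. UNG, which removes uracil from DNA, stayed between 12.5 and 14.7 CPM and was called in no comparison.

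Genes of fork protection, checkpoint and repair had 2 lower and 1 higher of 7 at day 3 against day 0, and 5 higher and 0 lower at day 5 against day 3. Of all genes at the CPM limit 19.1% were lower and 37.6% higher in the first comparison, and 36.5% were higher and 28.7% lower in the second. DTL, an adaptor of the ubiquitin ligase that acts on PCNA-bound proteins, read 25.7 CPM (25 to 26.3), 7.54 (6.34 to 8.89) and 52.7 (50.7 to 54.7), a ratio of 6.99 between days 5 and 3. BLM, a helicase of recombination repair, read 5.86 (5.56 to 6.17), 12.2 (10.7 to 13.9) and 48.2 (46.3 to 50.2) CPM and was 8.23-fold higher at day 5 than at day 0. EXO1, an exonuclease, read 8.55, 4.65 and 25.9 CPM. CLSPN, which encodes the checkpoint mediator claspin, read 40.9, 21.0 and 53.8 CPM. USP1, a deubiquitinase of PCNA, was 2.06-fold lower at day 3, just past the limit, at 50.7, 24.6 and 31.0 CPM. TIPIN, a fork protection factor, read 11.4, 13.6 and 21.8 CPM and was not called.

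Of the 9 chromatin and histone genes, 3 were higher and 3 lower at day 3 than at day 0, against 37.6% and 19.1% of all genes at the CPM limit, so the number higher was near the share over all genes. UHRF1, which guides maintenance methylation to new DNA, had the largest drop of the 39, from 41.8 CPM (41.0 to 42.6) at day 0 to 6.41 (5.32 to 7.67) at day 3, or 6.52-fold. At day 5 it read 30.7 CPM (29.2 to 32.3). HELLS, a remodeller that also serves DNA methylation, did not follow it and read 47.9 (47.0 to 48.7), 75 (71.2 to 79.1) and 119 (116 to 122) CPM. HELLS shares 34497 bases with TBC1D12 on the same strand, which read 6.96, 10.8 and 49.4 CPM. CDCA7, which partners HELLS, was higher at day 3, with 9.29, 23.4 and 13.2 CPM.

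The 2 histone supply genes also differed. NASP, a chaperone of histone H3, was the member with the highest level at days 3 and 5, with 60.3 CPM (59.3 to 61.3), 148 (143 to 154) and 202 (198 to 206). SLBP, which binds the stem loop of histone mRNA, was the highest at day 0 and 3.20-fold lower at day 5, with 74.8 (73.7 to 75.9), 28.8 (26.4 to 31.3) and 23.3 (22.0 to 24.7) CPM. CASP8AP2, a factor for histone gene expression, read 24.9, 54.6 and 55.3 CPM, higher at both later days. ATAD2, a chromatin ATPase, read 45.5, 41.7 and 129 CPM. UBR7, which binds histone H3 tails, read 14.5, 4.76 and 25.1 CPM. CHAF1B, a subunit of the assembly factor CAF-1, read 8.26, 2.46 and 8.62 CPM, under the limit of 10 CPM at every day. Of the cell cycle regulators, CCNE2 (cyclin E2) read 13.3, 19.6 and 19.5 CPM and E2F8, an E2F repressor, read 2.54, 2.94 and 4.18 CPM, and neither was called.

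Which direction a gene took against day 0 depended in part on scaling. TMM and the median of ratios shifted every log2 ratio of day 3 over day 0 by -1.198 and -1.161. Under TMM 24 members were lower at day 3 and 0 were higher, in place of 16 and 6, and MCM7, BLM and CASP8AP2 turned to log2 ratios of -0.07, -0.14 and -0.06. PCNA, not called at day 3 against day 0 at a log2 ratio of 0.53, turned to -0.67 under TMM and -0.63 under the median of ratios. Relative to the median of 14626 genes, 32 of the 39 lay below it at day 3 against day 0, 33 lay above it at day 5 against day 3, and 24 lay below it at day 5 against day 0. Over the 11 scalings, cell filters and cell calls, 12 genes were lower at day 3 than at day 0 in every one: MCM5, MCM6, CDC6, GMNN, GINS2, RFC2, RRM1, RRM2, DTL, SLBP, UHRF1 and UBR7. None was higher in all 11. At day 5 over day 3, 8 were higher in all 11 (POLA1, DSCC1, RRM2, EXO1, BLM, DTL, UHRF1 and UBR7), and at day 5 over day 0 only POLA1, DSCC1 and BLM were. The direction of 13, 18 and 25 members changed with the setting in the 3 comparisons. Shares over all genes were not computed under the other settings, and a scaling shifts them too, so these counts have no background share.

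**Figure D3:**
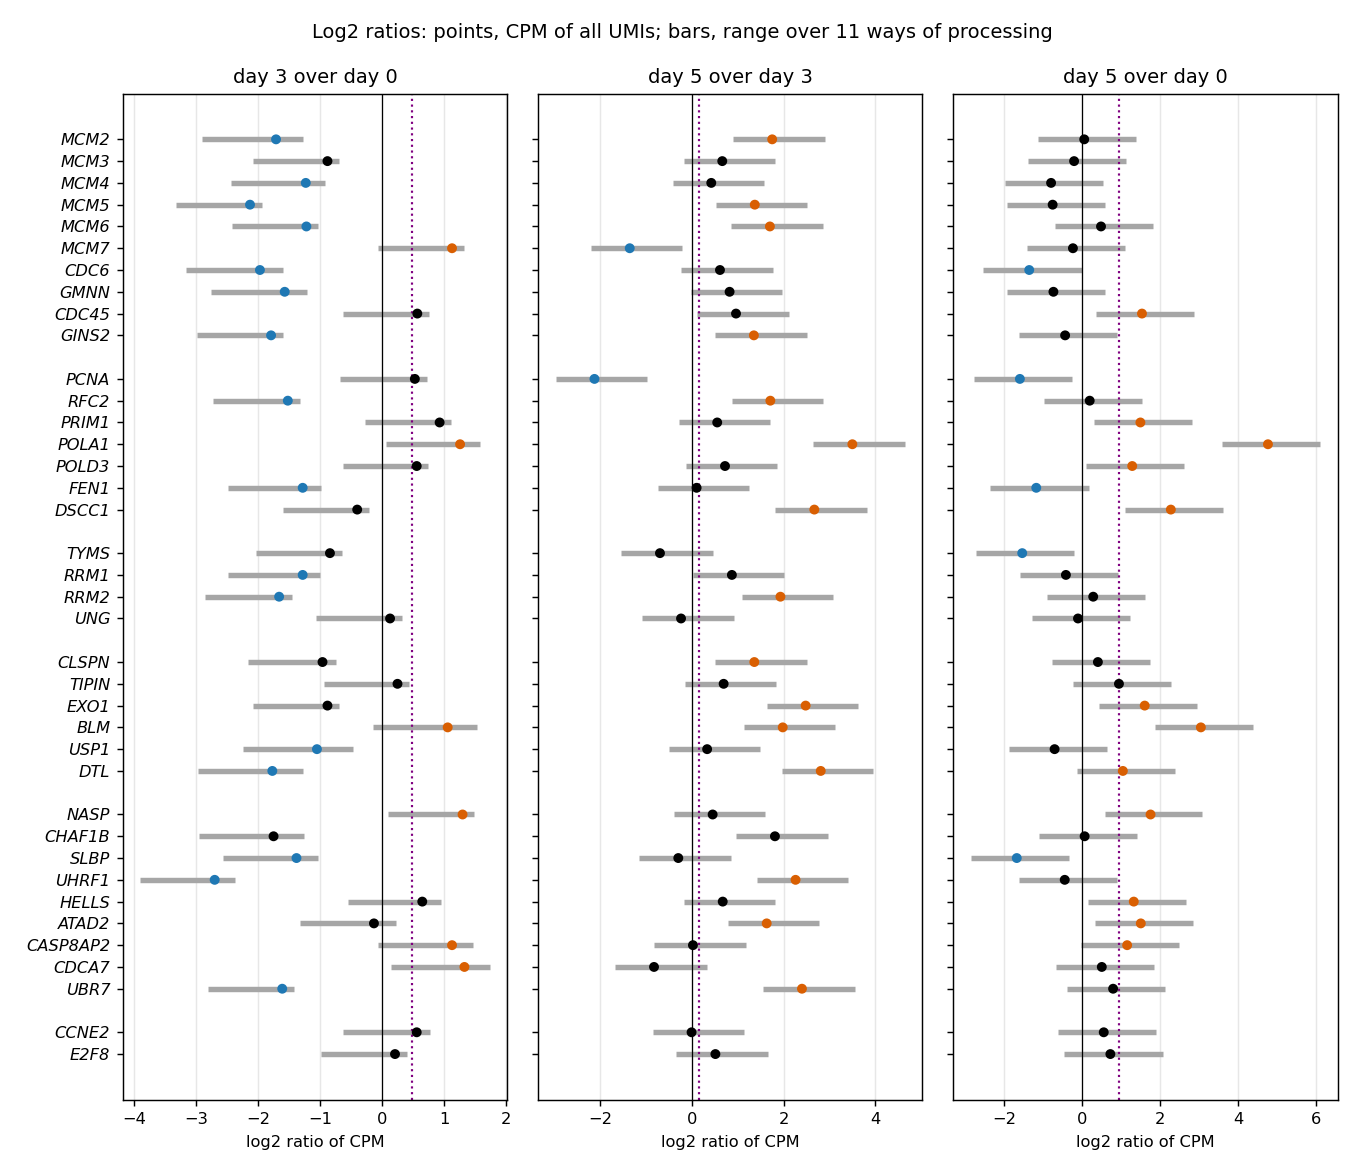
Log2 ratios of CPM for 38 of the 39 genes in the 3 comparisons, with orange points called higher, blue points called lower and black points not called. Grey bars span 11 ways of scaling and filtering and the dotted line is the median of all genes at 10 CPM or more (0.49, 0.16 and 0.93), and the bar of POLA1 stays right of 0 in each panel while that of MCM7 crosses 0 at day 3 over day 0.

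Intron content moved with the day 5 values. Of the 39 genes, 22 have under 20000 bases of intron (GENCODE 29) and 17 have more. At day 5 against day 0, 2 of the 22 were higher and 5 were lower, with a median log2 ratio of -0.22, while 10 of the 17 were higher and 0 lower, with a median of 1.15. At day 5 against day 3 the medians were 0.53 and 1.63, and those of all short and long genes at the CPM limit were -1.15 and 0.99. There 7 of the 22 short members were higher and 2 lower, where 13.4% of all short genes were higher and 55.1% lower. Of the 17 long members 9 were higher and 0 lower, against 49.8% and 13.6% of all long genes. Among all genes at the CPM limit, 21.3% of the short were higher and 51.9% lower at day 5 against day 0, with a median of -1.11, and 63.6% of the long were higher and 12.4% lower, with a median of 1.88. The share of long members called higher was thus near that of all long genes. Across the 39 genes Spearman's rho of intron bases and log2 ratio was 0.17, 0.57 and 0.65 in the order of the comparisons above, and across all genes 0.13, 0.58 and 0.55. The genes share each library's preparation, so these are descriptions and not tests. With totals over short-intron genes alone, 32 members were higher at day 5 than at day 3, and with totals over long-intron genes alone, 8 were. Shares over all genes were not computed with these totals. The part of intron content in the day 5 values was not tested.

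The wider replication machinery was read from 59 further genes, among them the origin recognition complex, other polymerase subunits and the E2F factors. At day 3 against day 0, 7 were higher and 16 lower, to be read, like the counts that follow, against the shares of all genes given above. At day 5 against day 3 the counts were 26 and 2, and at day 5 against day 0 they were 20 and 10. The largest changes at day 3 against day 0 were drops. POLE4, a subunit of polymerase epsilon, read 127 CPM at day 0 and 10.9 at day 3. TK1, thymidine kinase, read 69.3 and 6.68 CPM, and DCTPP1, a dCTP pyrophosphatase, read 38.9 and 4.70 CPM. Rising most from day 3 to day 5 were POLE2, from 5.83 to 62.4 CPM, GINS1, from 4.97 to 52.7, and DNA2, a nuclease and helicase, from 6.41 to 61.1. Against day 0, MCM9, a helicase of repair, stood highest, at 2.96 and 97.6 CPM, then CDC7, the kinase that triggers origin firing, at 3.00 and 45.8, and DNA2, at 4.63 and 61.1. Of 52 G2 and M phase genes, 3 were higher and 7 lower at day 3 against day 0, 16 and 5 at day 5 against day 3, and 17 and 7 at day 5 against day 0. The summed G2 and M level was 2203, 2301 and 2755 CPM. The 39 genes thus held 34.1% of the UMIs of both lists at day 0 (34.0 to 34.2), 29.1% at day 3 (28.8 to 29.5) and 35.7% at day 5 (35.5 to 35.9), a share that scaling cannot change.

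To ask how the transcripts were spread over cells, each cell with at least 1000 UMIs was thinned to 1000. At that equal depth 23.8% of cells at day 0 (exact binomial 95% interval 23.1 to 24.5), 23.0% at day 3 (22.1 to 23.9) and 39.9% at day 5 (38.9 to 40.9) had 2 or more UMIs on the 39 genes. Days 0 and 3 overlapped and day 5 lay above both. In cells that passed the strict filter the overlap was lost, with 30.1% (29.2 to 31.1) at day 0, 19.4% (17.9 to 21.0) at day 3 and 40.7% (39.6 to 41.8) at day 5. Thinning left out 2391 cells at day 0, 3013 at day 3 and 0 at day 5. The day 0 share takes in 2 shallow clusters described below, at 9.72% and 10.3%. Unthinned, the shares were 62.3%, 37.1% and 90.3%. At least 1 UMI was found in 45.1%, 54.3% and 69.7% of cells, and at least 3 in 13.7%, 9.89% and 22.2%, so day 0 lay below day 3 at 1 UMI and above it at 3. The spread differed too: the variance over the mean of UMIs per cell was 2.40 at day 0, 1.66 at day 3 and 1.76 at day 5. The 10% of cells with the most held 47.2%, 40.1% and 33.7% of the member UMIs.

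The members went together in the same cells, most tightly at day 0. For each gene, its level in cells with 2 or more UMIs on the other 38 was divided by its level in cells with none. The median ratio over the 39 genes was 7.31 at day 0, 2.68 at day 3 and 2.04 at day 5. The interval of the ratio lay above 1 for 39, 35 and 34 of them. The ratio was not computed for other genes, so these counts have no background share. At day 0 the ratio ran from 2.80 for TIPIN to 16.8 for E2F8. PCNA had 4.74 (4.05 to 5.56) at day 0, 1.42 (1.19 to 1.69) at day 3 and 1.09 (0.802 to 1.48) at day 5, the lowest of that day. MCM7 likewise read 7.03, 1.58 and 1.23. EXO1 had the highest ratio at day 5, 5.02 (3.25 to 8.07).

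**Figure D4:**
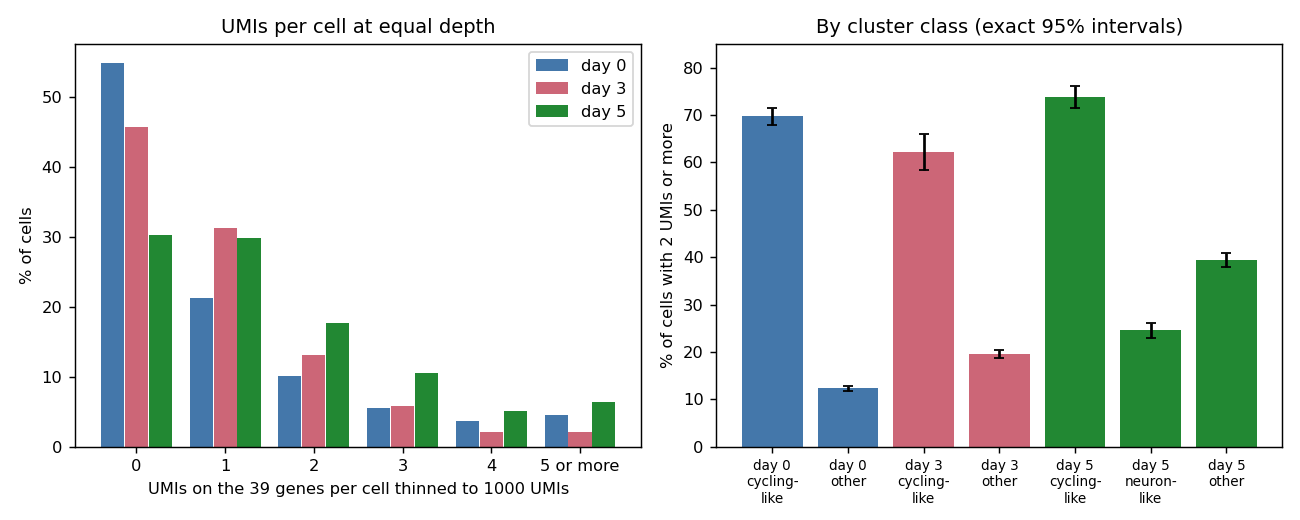
Left, percent of cells with 0 to 5 or more UMIs on the 39 genes after thinning to 1000 UMIs. Right, percent with 2 or more UMIs in each class of clusters, with exact binomial 95% intervals, from 12.3% in the other cells of day 0 to 73.8% in cycling-like cells of day 5.

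Each library was then clustered alone, without the 39 genes or the other replication genes among the variable genes. A cluster was called cycling-like when at least 7 of 14 markers of dividing cells, none of them a member, were 2-fold above the other cells. That gave 1 cluster per library, with 2897 cells at day 0, 698 at day 3 and 1369 at day 5, where 14, 14 and 10 of the 14 markers passed. MKI67, TOP2A, CDK1 and CCNB2 did not pass at day 5, so that cluster was set apart by fewer markers than the others. The cycling-like clusters were 17.3%, 6.09% and 14.8% of the cells. They held 66.2%, 21.7% and 23.9% of the member UMIs, against 29%, 8.73% and 13.1% of all UMIs. The summed member level in them was 2597 CPM (2586 to 2609) at day 0, 2347 (2273 to 2422) at day 3 and 2802 (2762 to 2843) at day 5, and in all other cells 542.8, 812.0 and 1341 CPM. In CPM, the cycling-like level thus differed less between days than the level outside those clusters, which was lowest at day 0 and highest at day 5. TMM shifted whole-library log2 ratios by -1.198 at day 3 and -1.136 at day 5 against day 0. No such scaling was applied within the clusters, so this order is given for CPM only. Within the cycling-like sums, the 22 members with under 20000 bases of intron read 1588, 985.8 and 854.8 CPM at days 0, 3 and 5. The 17 with more read 1010, 1361 and 1947 CPM. At day 3 a further cluster of 2476 cells led by RORB had 4 of the 14 markers, a G2 and M level of 4299 CPM and a member level of 1282 CPM. At equal depth 36.7% of its cells had 2 or more member UMIs. It held 22.3% of the member UMIs and 16.4% of all UMIs of that day, and is counted with the other cells. So are day 0 clusters of 4377 and 2963 barcodes led by RAB13, with median depths of only 1021 and 2406 UMIs. Of their 2252 and 2732 barcodes at equal depth, 9.72% and 10.3% had 2 or more member UMIs.

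At day 5, 7 clusters with at least 3 of the 13 pan-neuronal markers 2-fold above the other cells were neuron-like, with 2853 cells. Clusters of 882, 422 and 316 cells passed with only 4, 3 and 3 of the 13, and the others with 8 each. Of the 2853 neuron-like cells 24.6% (23.0 to 26.2) had 2 or more member UMIs at equal depth. The share was 73.8% (71.4 to 76.1) of cycling-like cells and 39.4% (38.0 to 40.8) of the rest. Median depths were 4625, 4217 and 4294 UMIs in the same order. Their summed member level was 1004 CPM (989.6 to 1019), and POLA1 stood at 97.5 CPM, NASP at 150 and MCM7 at 33.4 CPM in them. The neuron-like share is given as a reference within this library, and no share here is read as cells in S phase, which was not tested. Single neuron-like clusters ran from 19.6% to 32.1%, the latter in the cluster of 882 cells. Clusters in neither class ran from 24.3%, in 745 cells, to 52.4%, in 105 cells. The largest of them, with 2006 cells, had 49.4% and a member level of 1934 CPM. It held 30.7% of the member UMIs and 24.3% of all UMIs, where the cycling-like cluster held 23.9% and 13.1%. Free RNA at day 5 carried the members at 1613 CPM, and barcodes of 500 to 1000 UMIs at 2472 CPM, above the 1532 CPM of the kept cells. In these small barcodes 28 of the 39 genes exceeded their level in cells, and in the free RNA 18 did. The part of free RNA in the day 5 values was not tested.

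Gene by gene, the contrast between cycling-like cells and all others was widest at day 0. All 39 genes were above the other cells there, from 2.23-fold for SLBP to 16.2-fold for E2F8, with a median of 5.12. At day 3 the interval lay above 1 for 32 genes, with a median of 3.29, and at day 5 for 37, with a median of 1.82. This contrast was not computed for all genes, so these counts have no background share. Among day 0 cells with at least 1000 UMIs, cycling-like cells were also deeper, with a median of 23009 UMIs against 13217. RRM2 had the widest contrast at day 5, with 192 CPM (182 to 203) in cycling-like cells and 56.5 in the others, or 3.40-fold, against 11.9-fold at day 0. E2F8 at day 3 read 24.5 CPM (17.5 to 33.4) in cycling-like cells and 0.878 in the others. HELLS at day 3 read 396 CPM (366 to 428) and 44.3.

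MCM7 and PCNA had a smaller contrast between cycling-like and other cells at day 3 than at day 0. MCM7 read 129 CPM (112 to 148) in cycling-like cells of day 3 and 86.2 in the others, a ratio of 1.5 (1.29 to 1.73), where day 0 had 92.1 and 20.3, a ratio of 4.55. PCNA read 104 CPM (89.0 to 121) and 93.0, a ratio of 1.12 (0.95 to 1.31), where day 0 had 135 and 36.4. Only 12.5% of the MCM7 UMIs and 9.67% of the PCNA UMIs of day 3 were in the cycling-like cells, which held 8.73% of all UMIs, against 65.0% and 60.3% at day 0, where the cells held 29%. MCM7 held 211 of the 422 MCM2 to MCM7 UMIs in cycling-like cells of day 3 (an interval of 45.1% to 54.9%) and 65.7% (63.7 to 67.7) in the others, both above the 24.1% and 24.2% of day 0.

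**Figure D5:**
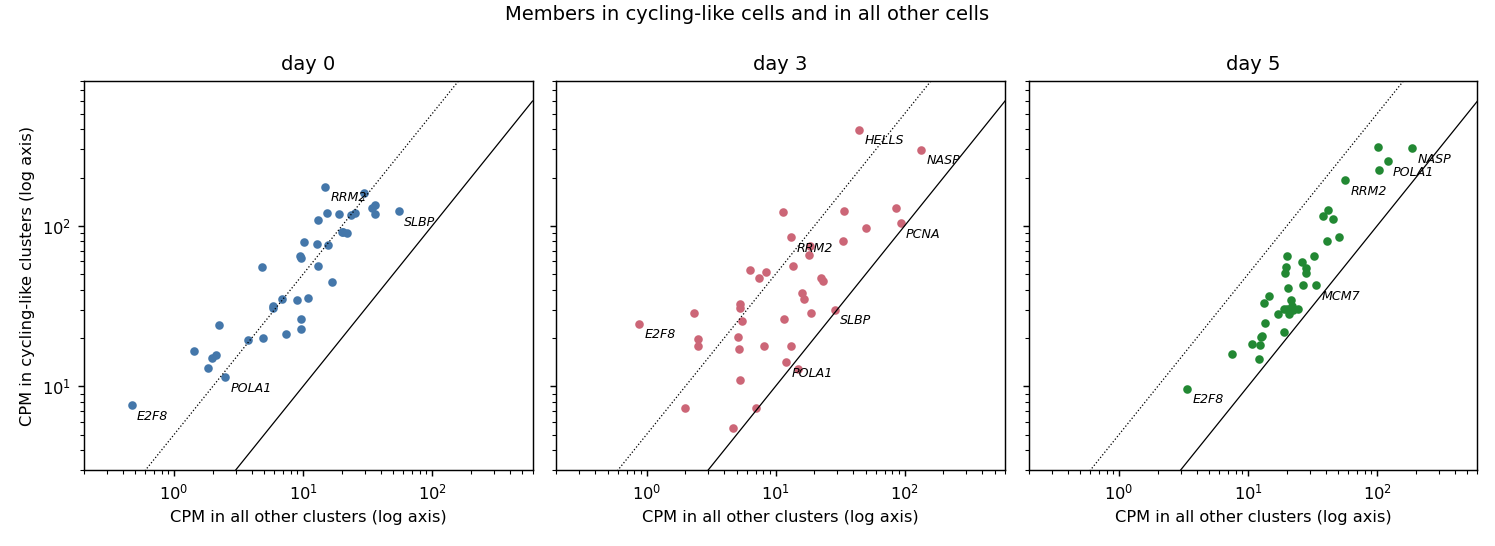
Level of each of the 39 genes in cycling-like clusters against all other clusters of the same library, in CPM on log axes, with the solid line at equal levels and the dotted line at 5-fold. At day 0 all points lie above the solid line with a median of 5.12-fold, at day 3 they scatter from 0.864-fold for UNG to 27.9-fold for E2F8, and at day 5 they draw closer to the line with a median of 1.82-fold.

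Comparing days within the cycling-like cells, a comparison added after the data were seen, gave 16 members lower and 7 higher at day 3 against day 0, where 20.6% and 38.9% of 10743 genes were lower and higher. UHRF1 fell there from 90.8 to 20.2 CPM, MCM6 from 34.6 to 7.35, on 12 UMIs at day 3, and MCM5 from 56.1 to 11, on 18 UMIs. MCM7 and PCNA were not called in these cells, with ratios of 1.40 and 0.772. HELLS was 3.34-fold higher and NASP 2.52-fold higher. At day 5 against day 3 13 were higher and 5 lower, against 32.8% and 29.5% of 12475 genes, and at day 5 against day 0 8 were higher and 11 lower, against 46.3% and 27.6% of 11869 genes.

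In all other cells more members were higher than lower at day 3 against day 0. There 10 were higher and 3 lower, with 26 of the 39 at 10 CPM or more, against 39.1% and 18.3% of 10289 genes, so the share higher was near that of all genes. The median log2 ratio was 0.08 for the 39 members and 0.56 for the 10289 genes. TMM shifted the whole-library log2 ratios of this comparison by -1.198, and no such scaling was applied within the clusters. MCM7 was 4.25-fold higher (4.0 to 4.52) and PCNA 2.56-fold higher (2.42 to 2.70), while MCM5, RFC2 and UHRF1 were lower. RRM2, 3.15-fold lower in the library as a whole, read 13.2 CPM there at day 3 and 14.8 at day 0, a ratio of 0.892 (0.775 to 1.02). At day 5 against day 3 18 were higher and 2 lower, the latter MCM7 and PCNA, against 37.0% and 28.7% of 12606 genes. At day 5 against day 0 21 were higher and 1, SLBP, was lower, against 50.4% and 25.3% of 12060 genes. The clusters were rebuilt in each library, so the cells on either side of the line may differ in kind between days.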

How the data were processed

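The authors deposited UMI counts per gene and barcode for 3 libraries, without normalization, with Cell Ranger 4.0.0 and the build GRCh38 (hg38) named per the submitters' processing notes. The sources used here do not state how introns and strand were treated. The deposited day 5 matrix held 2037119 barcodes, and those with 2155 UMIs or more (0.1 times the 99th percentile among the 10000 largest barcodes) were called cells. Kept cells had 500 UMIs or more, 300 genes or more and a mitochondrial share up to 20%. No doublet was removed. UMIs were summed over kept cells and divided by the total over shared genes. No test was run. The values of 1 member are not reported here by name, though it is in every count over the 39. In ratios a library under 3 UMIs was set at 3 UMIs. The rule for calls was tested on simulated data. Members, gene lists and the naming rule (every member except that one, and per comparison the 3 other replication genes with the largest change) were chosen with earlier results of these data known, and the number of markers a cluster needed was set after the clusters were seen. Clustering used scanpy 1.11.5 and igraph 0.11.9 (2000 variable genes, 30 components, 15 neighbours, Leiden resolution 0.5), and TMM used edgeR 4.0.16 in R 4.3.3. Intron lengths and overlaps come from GENCODE 29, where 13 of the 39 members overlap another shared gene, 11 of them on the opposite strand. Alternatives were other scalings, cell filters, cell calls, thinning, CPM limits of 5 and 20, and subtraction of the free RNA profile at an assumed 10% of each day 5 cell.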

Additional observations from a re-analysis of the deposited data

How the results depend on the processing

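Counts of members are given as higher and lower. For scalings, filters and limits other than the main ones, shares over all genes were not computed, so those counts have no background share. At day 3 over day 0 (6 and 16), the number lower stayed within 1.5 times under all 12 other settings, while the number higher was 0 under TMM and under the median of ratios, 1 when mitochondrial and ribosomal protein genes were left out of the totals, 1 with totals over long-intron genes and 3 under the strict filter. At day 5 over day 3 (16 and 2) totals over short-intron genes gave 32 and 0, and totals over long-intron genes 8 and 6. At day 5 over day 0 (12 and 5) TMM, the median of ratios and totals over long-intron genes each gave 3 and 17, totals over short-intron genes 26 and 0, totals that left out mitochondrial and ribosomal protein genes 8 lower, and thinned cells 3 lower. The median log2 ratio at day 5 over day 0 turned from 0.28 to -0.86 under TMM, -0.85 under the median of ratios, -0.90 with long-intron totals and -0.00 without mitochondrial and ribosomal protein genes, and that at day 5 over day 3 from 0.82 to -0.03 with long-intron totals.

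Among members called higher or lower as reported, direction turned in 11 cases. At day 3 over day 0, MCM7, BLM and CASP8AP2 read -0.07, -0.14 and -0.06 under TMM and -0.03, -0.10 and -0.03 under the median of ratios. At day 5 over day 0, DTL read -0.10, -0.09 and -0.14 under TMM, the median of ratios and long-intron totals, CASP8AP2 read -0.03 with long-intron totals, and FEN1 read 0.16 with short-intron totals. Another scaling shifts every gene of a library alike; the cause of the other changes was not tested. In cells of the cycling-like clusters, added after the data were seen, 5 were lower at day 5 over day 3 and 11 at day 5 over day 0. In all other clusters 10 were higher and 3 lower at day 3 over day 0, and 21 higher and 1 lower at day 5 over day 0.

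The share of cells with 2 or more member UMIs moved at days 0, 3 and 5 to 10.6%, 10.3% and 19.1% when thinned to 500 UMIs, to 41.7%, 40.7% and 67.1% at 2000 UMIs, to 45.1%, 54.3% and 69.7% at 1 UMI and to 13.7%, 9.89% and 22.2% at 3 UMIs. Under the strict filter it was 30.1% and 19.4% at days 0 and 3, and with every day 5 barcode of 1000 UMIs or more it was 49.8%. Day 5 was the highest under each. Depth limits day 3 most, where 46 UMIs are the fewest behind a member. No paired analysis was possible because each group is 1 library.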
